A study of Homo sapiens with 6 samples.

Results

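RUNX1, RUNX2, RUNX3 and CBFB, the genes of the RUNX transcription factors and of their common partner, were examined for binding of DPF3a, SMAD4 and p300 in 786-O cells, an established human line of clear cell renal cell carcinoma. They are 4 of the 20033 protein-coding genes of the annotation. A peak was assigned to a gene when its summit lay in the GENCODE gene or within 20 kb on either side, in hg38 with positions counted from 1. This gave 81 of the 51530 DPF3a peaks, 78 of the 46367 SMAD4 peaks and 29 of the 20380 p300 peaks, 188 of 118277 in all.

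The series holds 6 ChIP-seq samples, 2 for each factor. DPF3a, the short isoform of a SWI/SNF subunit, carried an HA tag, was overexpressed and was precipitated with an HA antibody from chromatin fixed with DSG and then formaldehyde. Endogenous SMAD4, the common SMAD of the TGF-β and BMP pathways, and endogenous p300, a histone acetyltransferase, were precipitated from chromatin fixed with formaldehyde only, and the labels leave unsaid whether those 786-O cells carried the DPF3a construct. The authors deposited 1 peak list per factor that joins its pair of replicates, so no value below has a replicate error and no test between replicates was possible. Factor, fixation, antibody and depth cannot be told apart between lists. Values are therefore compared within a list. The median summit height was 25 reads in the DPF3a list, 39 in the SMAD4 list and 23 in the p300 list, and intervals given below are at 95% and cover counting error only.

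RUNX1, RUNX2 and RUNX3 bind DNA through the Runt domain, and CBFB, which does not bind DNA itself, joins that domain and strengthens its hold on DNA. RUNX1 is best known from blood cell formation, RUNX2 from bone and RUNX3 from neurons and T cells. RUNX proteins work together with SMAD proteins at genes that respond to TGF-β and BMP, and p300 is among their coactivators. Each RUNX gene is read from a distal promoter, P1, and a proximal promoter, P2, which give proteins with different N-termini, whereas CBFB is read from a single promoter region.

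For each gene a sequence under the summit of highest fold enrichment is shown, except that for CBFB the DPF3a summit stands in for the SMAD4 summit 35 bp away, which was slightly higher, because the later results return to these sites. Each is 151 bases of hg38 centred on the summit and written 5′ to 3′ on the strand of the gene. Capitals mark matches on either strand to the RUNX consensus (TGTGGT or TGCGGT), the AP-1 consensus (TGAGTCA) or the SMAD palindrome (GTCTAGAC).
RUNX1, 183 kb upstream of P1, DPF3a summit, chr21:35232720-35232870 (minus strand): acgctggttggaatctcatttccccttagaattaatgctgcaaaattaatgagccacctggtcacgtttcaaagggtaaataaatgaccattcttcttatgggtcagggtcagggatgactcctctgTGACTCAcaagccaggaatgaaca
RUNX2, 23.5 kb downstream of P2, DPF3a summit, chr6:45445895-45446045 (plus strand): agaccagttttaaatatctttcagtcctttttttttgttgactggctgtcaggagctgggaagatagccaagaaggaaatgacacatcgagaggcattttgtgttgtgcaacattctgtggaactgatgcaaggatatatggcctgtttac
RUNX3, between P1 and P2, SMAD4 summit, chr1:24949436-24949586 (minus strand): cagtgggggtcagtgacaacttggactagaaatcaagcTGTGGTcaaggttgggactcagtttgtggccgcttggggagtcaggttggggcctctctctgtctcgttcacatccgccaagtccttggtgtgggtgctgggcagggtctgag
CBFB, downstream of the gene inside PHAF1, DPF3a summit, chr16:67115730-67115880 (plus strand): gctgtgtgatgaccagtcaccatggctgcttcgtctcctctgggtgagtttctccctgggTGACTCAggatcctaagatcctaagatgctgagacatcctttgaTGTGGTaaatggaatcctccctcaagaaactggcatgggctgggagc
RUNX1, 303 kb upstream of P1, SMAD4 summit with the SMAD palindrome, chr21:35352175-35352325 (minus strand): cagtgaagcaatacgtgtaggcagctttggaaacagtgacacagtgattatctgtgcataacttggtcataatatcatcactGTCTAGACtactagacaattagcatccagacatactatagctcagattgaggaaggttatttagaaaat

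The RUNX1 site held AP-1 letters away from its summit, the RUNX2 site held none of these letters, the RUNX3 site held 1 RUNX match and the CBFB site held 1 RUNX and 1 AP-1 match. The last sequence belongs to a SMAD4 peak with a fold enrichment of 10.2 that was shared with no other list.

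The stretches just upstream of the RUNX promoters are shown because the binding results differ between them. They come from the RefSeq promoter table (GRCh38.p14), which held 5 of the 7 promoters, and are cut at the first annotated exon base. RUNX1 P1 and CBFB had no entry, and RUNX2 P2 left 11 bases. Capitals mark the RUNX and AP-1 consensus as above.
RUNX2 P1, chr6:45328080-45328156 (plus strand): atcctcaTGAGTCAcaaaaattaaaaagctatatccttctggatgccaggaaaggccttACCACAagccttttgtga
RUNX3 P1, chr1:24965122-24965260 (minus strand): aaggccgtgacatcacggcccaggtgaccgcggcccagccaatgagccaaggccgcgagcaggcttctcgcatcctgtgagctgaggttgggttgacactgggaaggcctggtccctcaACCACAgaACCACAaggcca
RUNX3 P2, chr1:24930277-24930526 (minus strand): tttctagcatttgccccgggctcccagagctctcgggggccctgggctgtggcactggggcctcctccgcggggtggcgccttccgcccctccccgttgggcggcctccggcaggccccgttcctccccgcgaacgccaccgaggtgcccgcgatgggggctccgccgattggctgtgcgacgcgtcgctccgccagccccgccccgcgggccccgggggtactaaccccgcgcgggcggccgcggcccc
RUNX1 P2, chr21:34888700-34888949 (minus strand): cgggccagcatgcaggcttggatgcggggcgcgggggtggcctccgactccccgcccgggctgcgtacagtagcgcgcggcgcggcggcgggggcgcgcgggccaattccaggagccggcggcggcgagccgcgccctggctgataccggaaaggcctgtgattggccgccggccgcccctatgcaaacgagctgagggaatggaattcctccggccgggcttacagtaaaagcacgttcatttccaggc

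The RUNX2 P1 stretch held 1 RUNX and 1 AP-1 match and no CpG, and the RUNX3 P1 stretch held 2 RUNX matches. The P2 stretches of RUNX3 and RUNX1 held neither consensus, but 33 and 32 CpG. Of the 35116 RefSeq windows of 250 bases upstream of a start, 16.3% held the RUNX consensus and 4.2% the AP-1 consensus. Their median was 11 CpG. The P1 stretches of RUNX2 and RUNX3 were shorter than these windows, at 77 and 139 bases. Over 1 kb on either side of the start, the P2 promoters were richer in GC than the P1 promoters of the same gene. GC content was 43.4% at RUNX1 P1 and 62.7% at P2, 34.6% at RUNX2 P1 and 68.0% at P2, and 58.4% at RUNX3 P1 and 71.1% at P2. CBFB had 64.0%, and the median over all canonical starts was 56.0%.

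The first comparison asked how many peaks each gene held. All 4 genes had peaks of all 3 factors. Among protein-coding genes, 79.0% had at least 1 DPF3a peak, 81.3% at least 1 SMAD4 peak and 64.7% at least 1 p300 peak by the same rule, so the presence of peaks did not set these genes apart. RUNX1 had 55 DPF3a, 48 SMAD4 and 20 p300 peaks. RUNX2 had 16, 17 and 5, RUNX3 had 5, 6 and 2, and CBFB had 5, 7 and 2 peaks of DPF3a, SMAD4 and p300. The median gene had 2 DPF3a, 2 SMAD4 and 1 p300 peaks.

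RUNX1 held more DPF3a peaks and more SMAD4 peaks than any other protein-coding gene, and was 7th for p300. Its GENCODE limits span 1217 kb, because a transcript outside the basic set starts 955 kb upstream of P1, whereas the canonical transcript spans 262 kb. Among the 80 protein-coding genes that exceed 1 Mb with their flanks, the median was 12.5 DPF3a, 6 SMAD4 and 2 p300 peaks. Per 100 kb of gene and flanks, RUNX1 had 4.38 DPF3a, 3.82 SMAD4 and 1.59 p300 peaks. These densities lay at the 73.9th, 64.1st and 59.1st percentiles of all protein-coding genes. RUNX2 lay at the 72.5th, 71.4th and 53.1st percentiles, RUNX3 at the 77.8th, 79.3rd and 66.1st, and CBFB at the 74.8th, 82.6th and 63.4th for DPF3a, SMAD4 and p300. By density RUNX1 was thus no longer near the first rank. All 12 densities stood above the median gene and below the 90th percentile, except that with scores over 100, where RUNX3 and CBFB kept no p300 peak, their p300 percentile fell to 37.8, and that among windows of 100 kb or longer the SMAD4 densities of RUNX3 and CBFB reached the 93.3rd and 95.3rd.

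**Figure D1:**
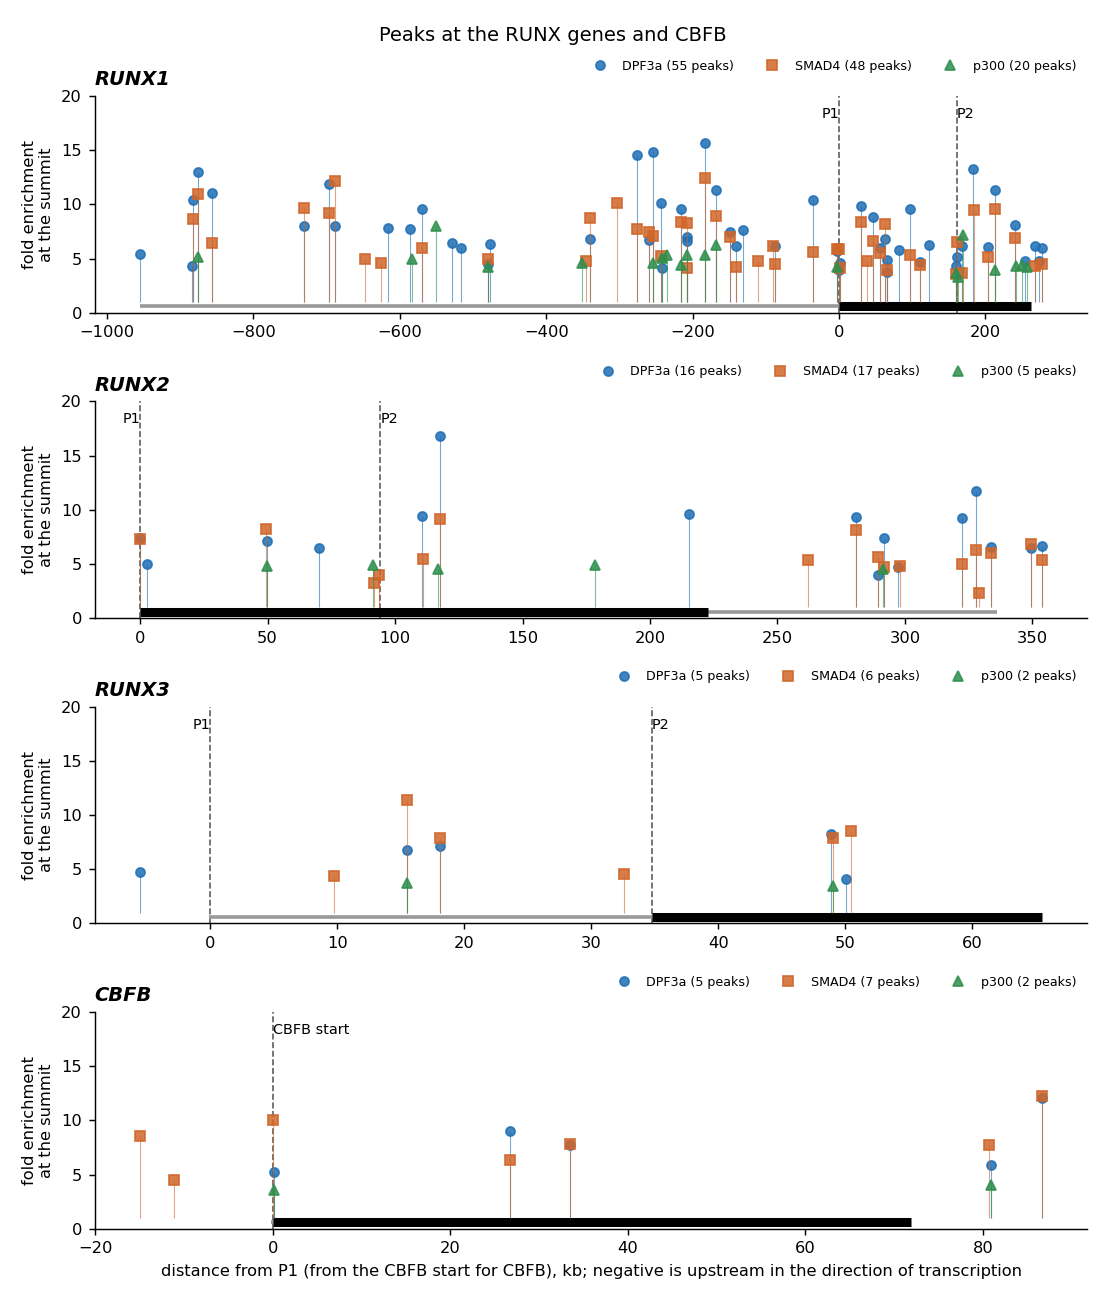
Fold enrichment at the summit of each peak (vertical axis) against its distance in kb from P1, or from the CBFB start, in the direction of transcription (horizontal axis), for DPF3a (circles), SMAD4 (squares) and p300 (triangles). Thick black bars are canonical transcripts and thin grey bars the GENCODE genes. Most RUNX1 peaks lay upstream of P1, where the stretch is longest and DPF3a and SMAD4 peaks per 100 kb were fewest. RUNX2 peaks lay in groups after P2 and beyond the canonical end, and RUNX3 peaks lay between its promoters and after P2.

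The fold enrichment, the ratio of the reads at the summit to the local background with 1 added to each, was ordinary for most of these peaks. Over the 4 genes DPF3a had a median of 6.81, SMAD4 one of 6.27 and p300 one of 4.57, beside 6.70, 6.30 and 4.92 in the whole lists. Of the 81 DPF3a peaks 43 exceeded their list median, as did 39 of the 78 SMAD4 peaks and 10 of the 29 p300 peaks. The highest 10% of the list held 9 of the DPF3a peaks, 5 of the SMAD4 peaks and 3 of the p300 peaks.

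RUNX1 is described first, segment by segment. Upstream of P1, a stretch of 975 kb held 32 DPF3a, 29 SMAD4 and 13 p300 peaks, or 3.28, 2.97 and 1.33 per 100 kb. Between P1 and P2, over 161 kb, there were 12 DPF3a, 10 SMAD4 and 1 p300 peaks outside the promoters themselves, or 7.47, 6.22 and 0.622 per 100 kb. From P2 to the end of the gene there were 6, 5 and 6, or 5.95, 4.96 and 5.95 per 100 kb. The downstream flank of 20 kb held 3, 2 and 0, or 15, 10 and 0 per 100 kb. DPF3a and SMAD4 peaks were thus least dense upstream of P1, where most of them lay because of its length. The stretch between the promoters was thus bound by DPF3a and SMAD4, while its only p300 summit lay 1267 bp upstream of P2.

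RUNX1 DPF3a peaks ranged in fold enrichment from 3.78 to 15.7 with a median of 6.74 (n = 55). The highest lay 183 kb upstream of P1, at 35232795 of chromosome 21, with 98 reads (interval 79.6 to 119). By fold enrichment it had rank 602 of 51530 in its list. SMAD4 had its summit 25 bp away with 76 reads and a fold enrichment of 12.4, the highest fold enrichment of its 48 RUNX1 peaks. p300 had its summit at the same base as DPF3a with 5.29 and 17 reads. The highest fold enrichments of DPF3a and SMAD4 in RUNX1 thus fell on 1 site of all 3 factors, the first of the sequences above. By height, SMAD4 peaks elsewhere in RUNX1 were taller, with 180 reads at P2 and 122 at 35738045.

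A site of all 3 factors was a DPF3a peak that shared at least 0.5 of both lengths with a SMAD4 peak and with a p300 peak. RUNX1 had 8 of them, of which 6 lay upstream of P1 and 2 after P2, and by this rule none between the promoters. Of the 6, 4 lay within 47.9 kb, from 169 to 216 kb upstream of P1. Besides the site above, these had DPF3a fold enrichments of 11.4 at 35217845, 7.04 at 35256749 and 9.60 at 35265720. Their SMAD4 values were 8.90, 8.31 and 8.36, and their p300 values 6.28, 5.31 and 4.43. The site nearest to P1, 2.22 kb upstream of it at 35051562, had a DPF3a fold enrichment of 5.70, with 5.94 for SMAD4 and 4.24 for p300. The farthest, 480 kb upstream at 35528997, was weak in every list, with 4.50, 5.0 and 4.27. The sites after P2 lay in introns, at 34808363 with 8.06, 6.88 and 4.34 and at 34836158 with 11.3, 9.55 and 3.99 for DPF3a, SMAD4 and p300. The latter is also the promoter of an unnamed GENCODE gene, ENSG00000286153. Between the promoters, peaks of all 3 factors overlapped at 34890003, with the SMAD4 and p300 summits 14 and 46 bp from that of DPF3a. The 505 bp DPF3a peak did not cover 0.5 of the 1090 bp SMAD4 peak, so this place was not counted.

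Other high RUNX1 peaks were shared by DPF3a and SMAD4 only. DPF3a reached 14.8 at 35303291 and 14.6 at 35324985, 254 and 276 kb upstream of P1, where SMAD4 had 7.11 and 7.71. A p300 peak of 4.59 lay wholly within the former but covered 0.346 of its length, below the 0.5 required of both. SMAD4 reached 12.2 with 122 reads at 35738045, 689 kb upstream of P1, where DPF3a had 8.05. A further DPF3a peak of 13.3 lay 23 kb downstream of P2, at 34865695, with SMAD4 at 9.51 and the RUNX consensus at both summits.

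The p300 peak of highest fold enrichment in RUNX1 lay elsewhere. It had a fold enrichment of 8.06 and 33 reads (interval 22.7 to 46.3) at 35599858, 551 kb upstream of P1 within the pseudogene EZH2P1, and was shared with neither list.

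At RUNX2 no peak lay more than 1 kb upstream of P1, and DPF3a and SMAD4 summits were found at P1, in the introns and beyond the canonical transcript. Between P1 and P2, over 94.2 kb, there were 3 DPF3a, 2 SMAD4 and 2 p300 peaks. After P2 there were 3, 2 and 2. Downstream of the canonical end, over 133 kb of which most is still inside the GENCODE gene, there were 9 DPF3a, 11 SMAD4 and 1 p300 peaks. Of the RUNX2 peaks, 9 of 16 for DPF3a and 11 of 17 for SMAD4 thus lay beyond the canonical transcript.

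The DPF3a peak of highest fold enrichment in RUNX2 was also that of highest fold enrichment in the 4 genes. It lay in an intron 23.5 kb downstream of P2, at 45445970 of chromosome 6. The fold enrichment was 16.8 (rank 247 in its list), with 97 reads (interval 78.7 to 118). SMAD4 had 80 reads and 9.12, its highest fold enrichment in RUNX2, 31 bp away. The nearest p300 peak, 4.52 at 45445250, did not overlap the DPF3a peak. In the downstream group DPF3a reached 11.8 with 86 reads at 45656054, where SMAD4 had 6.34 and 127 reads. The lowest SMAD4 fold enrichment of the 4 genes, 2.32 with 54 reads, came from 45657351 in the same group, where the local background was 22.7 reads.

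RUNX2 had 1 site of all 3 factors, 49.6 kb downstream of P1, with 7.14 for DPF3a, 8.21 for SMAD4 and 4.85 for p300. Its summits lay at a start of SUPT3H, which is read in the opposite direction across RUNX2 P1, so this site can belong to either gene. The p300 peak of highest fold enrichment, 4.94 with 15 reads, lay 84.4 kb downstream of P2 and was shared with neither list. All 5 RUNX2 p300 peaks lay between 4.52 and 4.94.

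RUNX3, the shortest of the RUNX genes, had the tallest peak. Between P1 and P2, 15.5 kb downstream of P1 at 24949511 of chromosome 1, SMAD4 had 347 reads (interval 311 to 386), the 10th highest summit of 46367. The fold enrichment was 11.4, with rank 2805, because the local background there was 29.6 reads, above 99.4% of the list. DPF3a had 6.81 and 64 reads 18 bp away, and p300 3.72 and 32 reads 22 bp away. The site counted as shared by all 3 factors and held the RUNX consensus within 50 bp of each summit.

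SMAD4 had 3 more tall peaks in RUNX3. The one at 24946962, 2.55 kb further from P1, had 228 reads (interval 199 to 260) and rank 152, with DPF3a at 7.16 and 62 reads. Those at 24914555 and 24916016, after P2, had 154 and 142 reads. The latter was the other site of all 3 factors in RUNX3, where DPF3a had 8.25, SMAD4 7.90 and p300 3.50. The remaining SMAD4 peaks, at 24932474 and 24955306, had 19 and 26 reads. RUNX3 SMAD4 peaks thus split into 4 with at least 142 reads and 2 with at most 26.

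The local background of these 4 peaks ran from 17.1 to 29.6 reads, beside a list median of 5.16 and a 95th percentile of 16.0. High backgrounds were met at other genes too: of the 78 SMAD4 peaks 11 exceeded that percentile, 4 in RUNX3, 5 in RUNX2 and 2 in RUNX1. Among DPF3a peaks 5 of 81 exceeded the percentile of their list (8.12 reads), and among p300 peaks 2 of 29 (9.30 reads). The deposited background of a peak can include reads of the peak itself, since no control library is named. The part of these backgrounds in the heights was not tested.

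**Figure D2:**
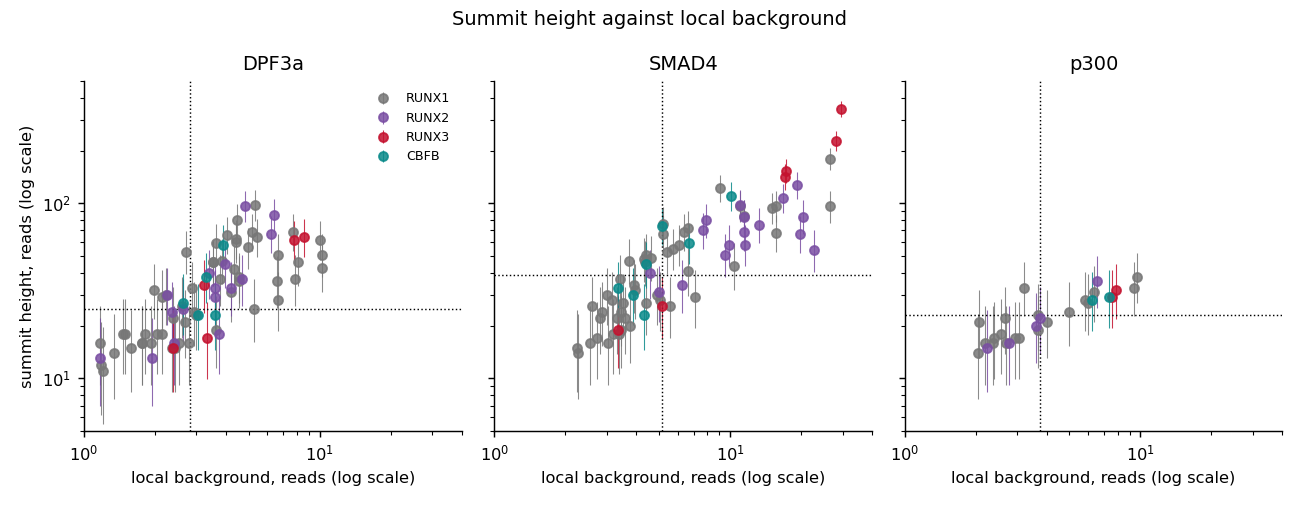
Summit height in reads (vertical axis, log scale) against local background in reads (horizontal axis, log scale) for each peak of the 4 genes, by factor and coloured by gene. Vertical bars are exact Poisson 95% intervals and dotted lines the list medians. The 4 tall RUNX3 SMAD4 peaks, at 142 to 347 reads, have backgrounds of 17.1 to 29.6 reads, and the tallest has the highest background.

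CBFB had a site of all 3 factors at its start. SMAD4 had 10 and 110 reads (interval 90.4 to 133) at 67029210 of chromosome 16, 61 bp downstream of the start, in the untranslated part of the first exon. DPF3a had 5.24 and 23 reads, and p300 3.61 and 29 reads. The body of the gene held 2 sites of DPF3a and SMAD4. DPF3a had 9.07 and SMAD4 6.35 at the site 26.8 kb from the start, and 7.69 and 7.80 at the site 33.5 kb from it. SMAD4 alone had 2 peaks in the upstream flank, of 8.55 and 4.51. The rest lay downstream in or at PHAF1, the neighbouring gene. A site of all 3 factors at the PHAF1 start had 5.91, 7.77 and 4.02 for DPF3a, SMAD4 and p300. The highest DPF3a and SMAD4 fold enrichments of the CBFB window, 12.0 and 12.2, lay 86.7 kb downstream of the CBFB start inside PHAF1. This place carried the RUNX and AP-1 matches shown above. Of the 2 sites of all 3 factors assigned to CBFB, 1 was therefore at its own promoter.

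The promoters were compared next. A promoter counted as bound when a summit lay within 1 kb of its start. DPF3a was found at 4 of the 7 promoters, SMAD4 at 5 and p300 at 1. Among the canonical starts of all protein-coding genes, 41.8% had a DPF3a summit within 1 kb, 57.8% a SMAD4 summit and 39.3% a p300 summit.

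At RUNX1 P1, DPF3a had a summit 129 bp downstream of the start with a fold enrichment of 3.92 and 43 reads, and SMAD4 122 bp downstream with 5.89 and 97 reads. At RUNX1 P2, DPF3a had 5.15 and 46 reads 528 bp downstream, and SMAD4 6.57 and 180 reads 484 bp downstream. The nearest p300 summits lay 2316 bp upstream of P1 and 1267 bp upstream of P2. In RUNX1 both promoters were thus bound by DPF3a and SMAD4, and p300 came within 1 kb of neither start. A further P2 transcript, RUNX1-205, starts at 34887183, with a p300 summit at 34886759, so the P2 result depends on the start chosen. DPF3a fold enrichments at these promoters were low for their list, in the lowest 3.0% at P1 and 19.3% at P2. The local background there was high, at 10.2 reads at P1 and 8.12 at P2, beside a list median of 2.82. The 43 and 46 reads stood above the list median height of 25.

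At RUNX2 P1, DPF3a had 7.44 and 24 reads 151 bp upstream of the start, and SMAD4 7.35 and 40 reads 17 bp upstream. At RUNX2 P2, which has 68.0% GC, SMAD4 alone was found, with 3.98 and 84 reads 502 bp upstream. The nearest DPF3a summit lay 16475 bp away and the nearest p300 summit 2683 bp upstream. RUNX2 thus differed between its promoters in DPF3a. The SMAD4 summit at P2 also lay inside an unnamed GENCODE gene, ENSG00000271857, and at its promoter.

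Neither RUNX3 promoter had a summit of any factor within 1 kb. The nearest to P2 was a weak SMAD4 peak 2198 bp upstream, with 4.61 and 19 reads, and the nearest to P1 a DPF3a peak 5571 bp upstream, with 4.73 and 15 reads. The nearest p300 summits were 15477 bp from P1 and 14288 bp from P2. The tall SMAD4 peaks of RUNX3 therefore lay away from both promoters, and a peak below the score threshold at either promoter was not detectable in these lists.

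**Figure D3:**
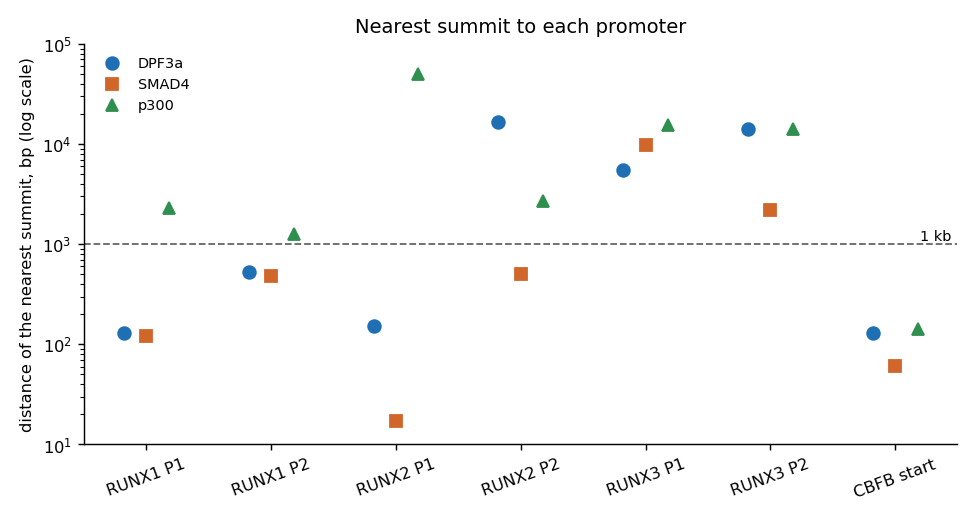
Distance in bp from each of the 7 promoters to the nearest summit of DPF3a (circles), SMAD4 (squares) and p300 (triangles), on a log scale. The dashed line marks 1 kb. At the CBFB start all 3 factors lie below it, at RUNX1 P1 and P2 and RUNX2 P1 DPF3a and SMAD4, at RUNX2 P2 SMAD4 alone, and at the RUNX3 promoters none.

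The sharing of sites was counted over the 4 genes. Of the 81 DPF3a peaks 57 were shared with SMAD4 (70.4%, Wilson interval 59.7 to 79.2), beside 59.3% of the whole list. With p300 14 were shared (17.3%, interval 10.6 to 26.9), beside 16.6%, and with both 13 (16.0%, interval 9.63 to 25.5), beside 15.2%. Of the 78 SMAD4 peaks 57 were shared with DPF3a (73.1%, interval 62.3 to 81.7), beside 65.9%, and 12 with p300 (15.4%, interval 9.03 to 25), beside 22.3%. Of the 29 p300 peaks 14 were shared with DPF3a (48.3%, interval 31.4 to 65.6), beside 41.9%, and 12 with SMAD4 (41.4%, interval 25.5 to 59.3), beside 50.7%. The intervals held the share of the whole list except for DPF3a with SMAD4, where it lay just below the lower bound. Counted from the SMAD4 peaks, the interval for the same 57 sites held the whole-list share of 65.9%. The intervals treat peaks as independent, although 55 of the 81 DPF3a peaks were in RUNX1, so this exception does not establish a difference.

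Each of the 4 genes had at least 1 site of all 3 factors, as did 41.4% of protein-coding genes, which were not matched to them in length. With scores over 100 in every list, 0 of these 13 sites were left. At the 13 sites the SMAD4 summit lay 18 to 297 bp from the DPF3a summit with a median of 74 bp, and the p300 summit 0 to 481 bp from it with a median of 98 bp. The DPF3a peaks shared with SMAD4 but not p300 had a median fold enrichment of 7.84 and 37.5 reads (n = 44). Those shared with both had 7.14 and 56 reads (n = 13), and those shared with neither had 5.82 and 16 reads (n = 23). The height of unshared DPF3a peaks was therefore nearer to the limit of detection.

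Peaks that overlapped by at least 1 bp were joined into 107 bound regions, 70 in RUNX1, 23 in RUNX2 and 7 each in RUNX3 and CBFB. DPF3a and SMAD4 without p300 held 45 regions (42.1%, interval 33.1 to 51.5), beside 33.5% of the 69103 regions of the whole lists. All 3 factors held 17 (15.9%), beside 16.5%. DPF3a alone held 18 (16.8%), beside 23.6%, SMAD4 alone 15 (14.0%), beside 14.0%, and p300 alone 10 (9.35%), beside 9.24%. The Wilson interval of each of these 5 classes held the share of the whole lists. The regions of p300 alone were in RUNX1, with 8, and in RUNX2, with 2.

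**Figure D4:**
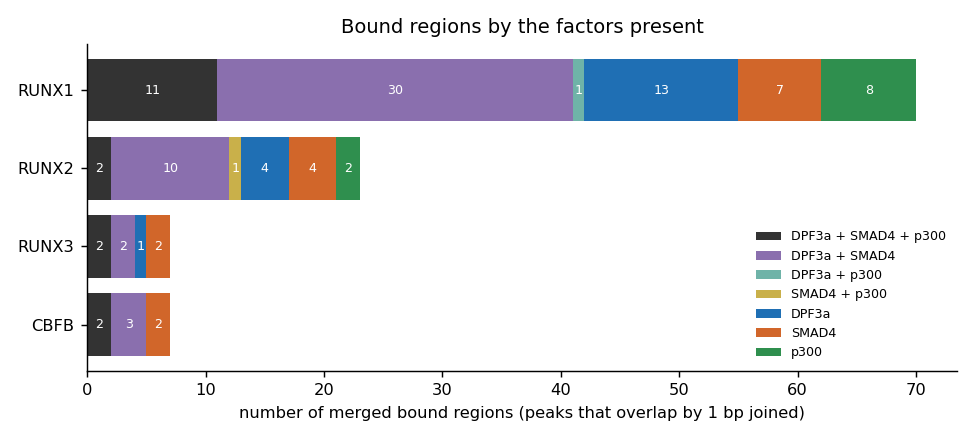
Number of bound regions (horizontal axis) in each gene, divided by the factors present in the region. DPF3a with SMAD4 is the largest class in RUNX1 with 30 of 70 regions and in RUNX2 with 10 of 23, and RUNX3 and CBFB have no region of p300 alone.

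Summits in coding exons were counted apart. None of the 81 DPF3a summits lay in a coding exon of a canonical transcript, which allows a share of up to 3.70% by the limit of 3 counts and 4.53% by the upper Wilson bound, beside 2.4% of the list. None of the 78 SMAD4 summits did, which allows up to 3.85% by the limit of 3 counts and 4.69% by the upper Wilson bound, beside 3.9% of the list. Of the 29 p300 summits 3 did (10.3%, interval 3.58 to 26.4), beside 10.4% of the list. All 3 were in RUNX1 after P2 and were shared with neither list. They lay at 34792535 with a fold enrichment of 4.19 and 24 reads, at 34799394 with 4.40 and 21 reads, and at 34880651 with 7.19 and 21 reads. The third, 8039 bp downstream of P2, had the second highest p300 fold enrichment of the gene and held the RUNX consensus. They made up 3 of the 6 p300 peaks between P2 and the end of RUNX1. Their source was not tested.

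The consensus sequences of DNA-binding factors were searched on both strands within 50 bp of each summit. The RUNX consensus was found at 19 of the 81 DPF3a summits (23.5%, interval 15.6 to 33.8), at 15 of the 78 SMAD4 summits (19.2%, interval 12.0 to 29.3) and at 5 of the 29 p300 summits (17.2%, interval 7.60 to 34.5). The whole lists had it at 17.7%, 16.6% and 10.6%. The AP-1 consensus was found at 18 DPF3a summits (22.2%, interval 14.5 to 32.4), 13 SMAD4 summits (16.7%, interval 10 to 26.5) and 2 p300 summits (6.90%, interval 1.91 to 22), beside 22%, 15.0% and 3.61% of the lists. Every interval held the share of its list, so no enrichment of RUNX letters at the RUNX genes was detectable with these numbers of summits. A match is only a match of letters, and RUNX binding was not measured.

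**Figure D5:**
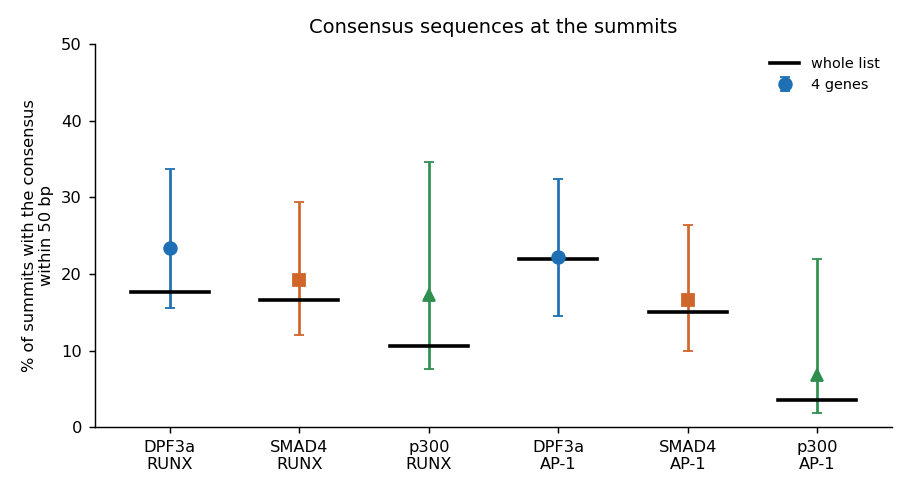
Share of summits, in percent, with the RUNX or AP-1 consensus within 50 bp, for the peaks of the 4 genes (symbols with 95% Wilson intervals) and for the whole list (black lines). Each black line falls inside the interval beside it.

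By gene, the RUNX consensus was found at 10 of 55 DPF3a summits of RUNX1, 4 of 16 of RUNX2, 2 of 5 of RUNX3 and 3 of 5 of CBFB. At SMAD4 summits it was found at 10 of 48, 1 of 17, 2 of 6 and 2 of 7. The SMAD4 summits of RUNX3 with the letters were those of 347 and 228 reads. The SMAD palindrome was found at 2 SMAD4 summits, both upstream of RUNX1 P1 and shared with neither list, 2 of 78 beside 0.239% of the whole list. The first had a fold enrichment of 4.80 and 16 reads, 111 kb upstream, and the second is the last of the summit sequences above, 303 kb upstream with 47 reads. The TEAD consensus (ACATTCC) was found at 3 of 81 DPF3a and 2 of 78 SMAD4 summits, beside 4.56% and 3.18% of the lists, and the ETS consensus (CCGGAAG) at 1 of 78 SMAD4 summits, beside 1.9%.

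A list of 30 other genes of RUNX function was counted by the same rule: corepressors, coactivators and DNA-binding partners, the kinase and ubiquitin ligases that act on RUNX proteins, and target genes. All 30 had DPF3a and SMAD4 peaks, 25 had p300 peaks and 20 had a site of all 3 factors, beside the 79.0%, 81.3%, 64.7% and 41.4% of all protein-coding genes, which were not matched to them in length. Coding-exon summits are included in these counts and shares, and for WWP2 and MMP13 the only p300 summit lay in a coding exon. The medians were 5 DPF3a, 5 SMAD4 and 2 p300 peaks per gene. At the canonical start, 19 of the 30 had a DPF3a summit, 25 a SMAD4 summit and 11 a p300 summit. Among all canonical starts the shares were 41.8%, 57.8% and 39.3%.

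Among partners, SMAD3, the receptor-activated SMAD of the TGF-β pathway, had the most DPF3a peaks of the list. It held 21 DPF3a, 20 SMAD4 and 7 p300 peaks and 5 sites of all 3 factors, at the 99.4th, 97.5th and 91.0th percentiles of density. WWTR1, which encodes the YAP-related coactivator TAZ, had 18, 15 and 7 peaks and 2 such sites. ETS1, a DNA-binding partner of RUNX1, had 9, 9 and 3 peaks and 3 such sites. CREBBP and CEBPB had 1 such site each, and YAP1 and KAT6B had none.

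Of the 8 corepressor genes 6 had a site of all 3 factors, beside 41.4% of all protein-coding genes. TLE4, a Groucho corepressor, had 3, and TLE1, SIN3A, NCOR1, CBFA2T2 and CBFA2T3 had 1 each. HIPK2, a kinase, had 2 such sites, and the ubiquitin ligases SMURF1 and SMURF2 had 1 each. Of the 11 targets 6 had one, beside the same 41.4%. These were CDKN1A, a cell cycle inhibitor, with 2, and CSF1R, CSF2, ITGA5, COL10A1 and VEGFA with 1 each. The bone genes SPP1, MMP13, IBSP and BGLAP, which are known RUNX2 targets, and the apoptosis gene BCL2L11 had none, although SPP1 and MMP13 had 4 and 5 SMAD4 peaks.

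Most of the coding-exon p300 summits of the list came from 3 genes, chosen after their values were seen. CREBBP, which encodes the paralogue of p300, had 16 of its 17 p300 summits in coding exons, the corepressor NCOR1 7 of 9 and SIN3A 5 of 6. Together these were 28 of 32, beside 10.4% of the whole p300 list. The other 27 genes had 5 of 57 (8.77%), RUNX1 had 3 of 20, and RUNX2, RUNX3 and CBFB had none.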

How the data were processed

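Per the labels and the study's methods, adapters were trimmed with cutadapt, reads were mapped to hg38 with Bowtie2 2.3.5.1, reads of low mapping quality and duplicates were removed, and peaks were called with MACS2 2.2.5. How the replicates were joined is not given in the sources used here. The authors kept scores over 50. The score that the authors deposited equals 10 × −log10 q without its decimals for 99.9% of peaks or more. The deposited fold enrichment is a ratio of pileup to background, and −log10 p and −log10 q were deposited beside it. From fold and −log10 p the summit height and background were recovered in whole reads and background reads, which gave back the deposited −log10 p within 8.6e-04.

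Coordinates, transcripts and coding exons came from GENCODE 44. P1 and P2 were told apart by the N-terminus of each basic protein-coding transcript, and each was placed at its most upstream start. Shared peaks overlapped over 0.5 or more of each length. The overlap calls, checked against bedtools 2.31.1, were identical in 12 of 12 combinations, and height recovery and motif search were tested on simulated data. Intervals are Wilson for shares and exact Poisson for heights. Tools were Python 3.11.15, pandas 2.3.3, SciPy 1.17.1, pysam 0.24.0 and matplotlib 3.10.9.

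Samples were grouped by the factor in their titles. The 4 genes, the 30 partner and target genes and the consensus sequences were chosen with earlier results of these data known. Named were, for each gene and factor, the peak of highest fold enrichment, the peak nearest to each promoter, every site of all 3 factors and every coding-exon summit, and of the partner list the genes with a site of all 3 factors. Other peaks and genes named were chosen after their values were seen. Alternatives were other score thresholds, flanks, gene limits, promoter widths, overlap rules and motif windows.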

Additional observations from a re-analysis of the deposited data

How the results depend on the processing

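No paired analysis was possible because every list joins its pair of replicates, and for the same reason no replicate could be left out. Of the 72 alternative values of counts and motif shares, 48 stayed within 1.5 times the reported count or within its interval. Scores over 100 left 3 p300 peaks, 0 sites of DPF3a and p300, 1 of SMAD4 and p300 and 0 of all 3 factors, and 0 promoters with p300. Scores over 200 left 33 DPF3a, 39 SMAD4 and 0 p300 peaks, 22 sites of DPF3a and SMAD4, 0 of each other kind, and 0 promoters with DPF3a or p300. The limits of the canonical transcript with 20 kb on either side left 40 DPF3a, 38 SMAD4 and 16 p300 peaks. They left 29 sites of DPF3a and SMAD4, 9 of DPF3a and p300, 7 of SMAD4 and p300 and 8 of all 3 factors. These limits drop most of the stretch upstream of RUNX1 P1, the RUNX2 peaks beyond the canonical transcript and the RUNX3 peaks nearest to P1. With 2500 bp on either side, 3 promoters had p300. With 100 bp on either side of the summit, the RUNX consensus was found at 38.3% of DPF3a, 32.1% of SMAD4 and 31.0% of p300 summits, beside 29.2%, 28.1% and 20.2% of the lists. Among genes with windows of 100 kb or longer, the density percentiles of the 4 genes were 66.5 to 95.3, and with scores over 100 they were 37.8 to 85.3. The median −log10 q of the p300 list, 6.79, lies close to the threshold of 5.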
